A study of Mus musculus with 2 samples.

Results

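The gene-level expression table of this series gives 2 columns, FL for fetal liver and BM for bone marrow, which were compared gene by gene to describe which cell types and gene programmes the FL column holds. Genes entered the description when they are protein-coding or long non-coding (lncRNA) and reached 5 FPKM or more in either column; FPKM counts sequenced fragments relative to transcript length and to the library's mapped fragments, so levels can be compared between genes. Of 37820 genes in the table, 10031 met this rule, 9880 of them protein-coding and 151 lncRNA. At the edge of the rule, Ulk4 was just inside, with 5.0009 FPKM in FL, and Ifit2 just outside, with 4.9994 FPKM in BM. Where values are given below as 1 number against another, the FL column comes first.

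The study profiled RNA of sorted haematopoietic stem cells (HSCs) from mouse fetal liver at embryonic day 14.5 and from adult bone marrow, with libraries of poly(A)-selected RNA. The adult group is B6129SF1 mice, aged 6 to 8 weeks, with 2 samples, replicates 1 and 2; no genotype, allele or treatment is listed, and fetal samples of their own were not analysed here. The labels record the molecule as genomic DNA although their protocol describes RNA. For these groups, sort markers, mice per library and the strain of the fetuses were not given in the sources used here.

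Column headers do not settle what each column holds. Among 3125 genes with a single linked transcript and 1 FPKM or more in all 4 columns of the gene table and of its companion with transcripts, 75.6% of the BM gene values lay within 10% of a constant ratio to the transcript values headed FL. For the 2 columns headed BM it came to 17.7%, and for those headed FL to 14.8%. Between gene values headed FL and transcript values headed BM it was 13.9%. The decimals also set the FL gene values apart: of those with 2 digits before the decimal point, 92.4% became whole at the fourth decimal when multiplied by 3 and 31.2% when multiplied by 2 (tolerance 0.01 of the last decimal), the pattern of a mean of 3 rounded values. In the BM column 93.6% became whole when multiplied by 2, and among transcript values 88.9% (FL) and 88.0% (BM). The FL column of the gene table therefore matched neither column of the transcript table, while the BM column carried, for most of these genes, the values headed FL there. Columns are named below by table and header only.

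Genes known from fetal HSCs bear on this match. Of 14 such genes, all of which met the rule, 6 were higher in FL, 1 in BM and 7 within 2-fold (median 0.77). Their median in the gene table was 74.9 FPKM under FL and 22.7 FPKM under BM. Transcript sums had medians of 21.9 FPKM under FL and 0.911 FPKM under BM, where 4 of 14 reached 5 FPKM. Lin28b, an RNA-binding regulator of fetal HSCs, was at 8.33 against 9.65 FPKM in the gene table, and its transcripts summed to 8.51 FPKM under FL and 0.304 FPKM under BM. Hmga2, a chromatin protein gene that Lin28b is known to act through, was at 111 against 96.5 FPKM, with transcript sums of 93 and 3.27 FPKM. Igf2bp3 was at 28.1 against 20.8 FPKM, with transcript sums of 20.1 and 0.407 FPKM. For these 3 genes the transcript sum headed BM was the lowest of the 4 values, and the gene table's BM value lay beside the transcript sum headed FL. The gene table's BM column may therefore hold fetal liver HSC values. Its comparison with the FL column below is not to be read as adult marrow compared with fetal liver.

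Each column is a single set of values with no replicate columns, so the spread between libraries is unknown and no test was possible. "Higher" and "lower" describe these columns. Ratios are log2((FL + 0.1) / (BM + 0.1)), centred by subtracting their median of -0.24 among the 10811 genes with at least 1 FPKM in both; they are positive where FL is higher, and they understate differences of genes near 0. A gene is called higher in a column when the relative ratio is at least 2-fold. In such bulk values, fewer cells of a type and less RNA per cell cannot be told apart. The sequencing depth is unknown.

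Endothelial cells line blood vessels and express the junction protein VE-cadherin and receptors for VEGF, the growth factor that drives vessel formation. In the fetal liver, sinusoidal endothelium, stellate and other mesenchymal cells, macrophages and hepatoblasts surround HSCs that expand there, and endothelium and blood share several transcription factors because HSCs arise from haemogenic endothelium in the embryo. Immediate early genes such as Fos are switched on within minutes by growth factors, shear or tissue dissociation, and Hox genes mark position along the body axis in mesoderm-derived cells.

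The FL column was set apart, beyond the genes within 2-fold, by vessel, matrix and growth genes, and the BM column by red-cell, granulocyte and general blood genes. Of the 10031 genes, 1890 (18.8%) were at least 2-fold higher in FL and 1044 (10.4%) at least 2-fold higher in BM, and 7097 lay within 2-fold. Without centring on the median gene these counts were 1592 and 1553, so the share of called genes that are higher in FL, 64.4%, was 50.6% on that scale and 56.5% after upper-quartile scaling. At least 4-fold apart were 1049 genes in the FL direction (10.5%) and 295 in the BM direction (2.94%). The genes higher in FL took 16.4% of all FPKM of the FL column and 3.28% of the BM column, and those higher in BM took 3.87% and 10.4%.

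A gene that passed the 5 FPKM rule through 1 column alone had to differ, and this concerned many of the largest ratios. At 5 FPKM or more in FL and under 1 in BM were 414 genes, 52 of them listed at 0 in BM, and 112 genes showed the reverse, 7 of them listed at 0 in FL. Among the 8100 genes that reached 5 FPKM in both columns, 843 (10.4%) were higher in FL and 619 (7.64%) higher in BM. At least 4-fold apart were 232 (2.86%) in the FL direction and 73 (0.901%) in the BM direction. Without centring, the 2-fold counts of these 8100 genes went the other way, with 609 higher in FL and 1039 higher in BM. The 4-fold counts were then 180 and 116. List counts below are given for all members of a list that met the rule and, where it matters, for those that reached 5 FPKM in both columns. Many lists share genes, so their counts are not independent of each other. Across the 10031 genes Pearson's r of log2 values was 0.642, a description over genes, which are not replicates.

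**Figure D1:**
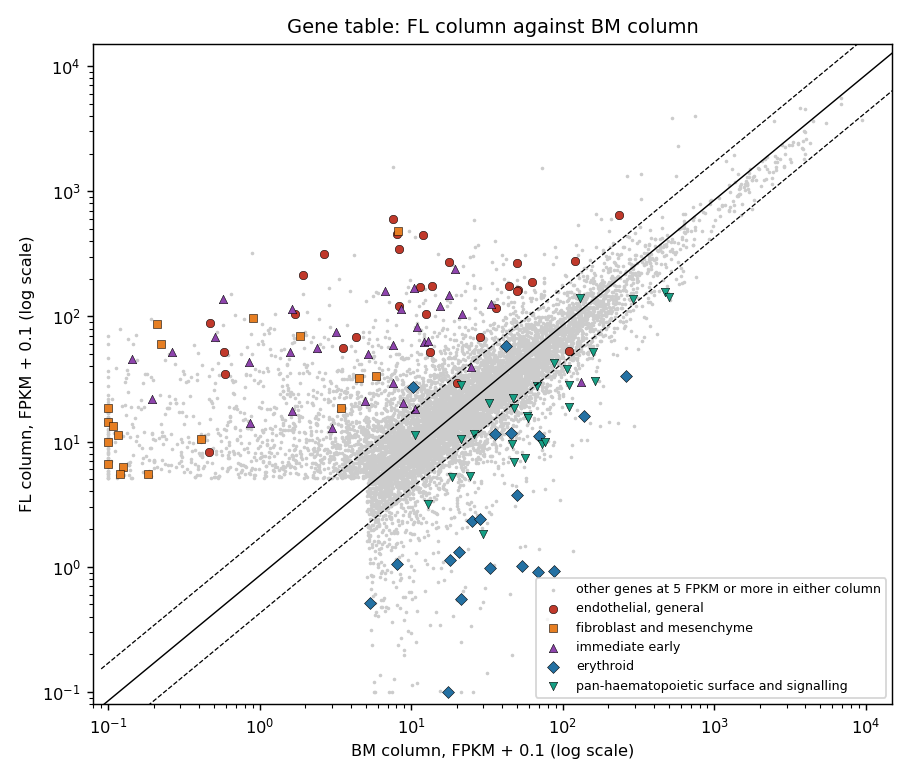
Levels of the 10031 genes in the BM column (x axis) and the FL column (y axis) of the gene table, in FPKM plus 0.1 on log scales; each point is a gene, coloured points belong to 5 gene lists, the solid line is the median ratio and the dashed lines are 2-fold from it. Endothelial, fibroblast and immediate early genes lie mostly above the upper dashed line, and erythroid and pan-haematopoietic genes mostly below the lower one.

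General endothelial genes were the most abundant of the cell type groups that set FL apart. All 30 listed genes met the rule, 28 were higher in FL and none was higher in BM; the median relative log2 ratio was 4.13, and their summed level was 5835 FPKM in FL and 934 FPKM in BM. Among the 21 that reached 5 FPKM in both columns, 19 were higher in FL. The 4 genes that mark this column, Plvap (fenestral diaphragms), Cdh5 (VE-cadherin), Kdr (a VEGF receptor) and Sparc (a matrix protein), had relative log2 ratios of 6.53, 6.06, 7.03 and 6.10. These markers were chosen with earlier results of these data known, so their ratios are not independent evidence. Sparc stands in the fibroblast and mesenchymal list and not in the general endothelial list. Cldn5, the tight junction claudin of endothelium, was at 316 against 2.56 FPKM, a relative log2 ratio of 7.13. Mmrn2, an endothelial matrix glycoprotein gene, was at 89 against 0.374 FPKM. Emcn, the sialomucin endomucin of veins and capillaries, was at 446 against 12 FPKM, and Pecam1, the junction protein CD31, at 269.9 against 17.8 FPKM. Smaller ratios belonged to genes that blood progenitors also express: Cd34 was at 279 against 120.4 FPKM, a relative log2 ratio of 1.45, and Egfl7, which encodes a secreted factor of endothelium, at 649 against 236 FPKM, a ratio of 1.70. Myct1 (29.2 against 19.9 FPKM) and Adgrl4 (52.8 against 109 FPKM) were within 2-fold.

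ETS-family transcription factors are shared regulators of endothelial and blood genes, and the proximal promoters of 3 endothelial genes are shown because they hold an ETS-type motif. ACAGGAA was searched on both strands in the RefSeq promoter table (GRCm38.p6), in the bases before each gene's first listed start. It occurred in 5 of the 15 endothelial genes that have an entry, in 7.05% of all 27025 promoters of the same length and in 5.82% of the 7973 genes of this comparison with an entry. Among genes at least 4-fold higher in FL it occurred in 6.22% of 756, and among those at least 4-fold higher in BM in 10.7% of 224. The share of the FL group lay near that of all promoters. CCGGAAG, another ETS-type motif searched, was in 0 of the 15 endothelial promoters and in 15.5% of the promoters of this comparison. ACAGGAA was also in 4 of 13 neutrophil and monocyte promoters, a list with a negative median ratio, so it was not particular to the endothelial list. A stretch of 60 bases is given for Egfl7 (chr2:26580965-26581024, plus strand), Emcn (chr3:137340984-137341043, plus strand) and Tie1 (chr4:118490026-118490085, minus strand), each read 5′ to 3′ along its gene, with the motif or its reverse complement TTCCTGT in capitals.
Egfl7: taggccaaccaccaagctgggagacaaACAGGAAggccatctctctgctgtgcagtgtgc
Emcn: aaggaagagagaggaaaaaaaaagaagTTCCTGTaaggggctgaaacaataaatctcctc
Tie1: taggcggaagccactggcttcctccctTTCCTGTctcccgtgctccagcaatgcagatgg
The angiopoietin receptor-like gene Tie1 was at 267 against 49.6 FPKM, and levels of the other 2 are given above. A match is a description of the sequence only.

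Endothelial genes of several vessel types were higher in FL together. Of 18 arterial genes 15 met the rule, 14 were higher in FL and 1 in BM (median 5.53); 3 reached 5 FPKM in both columns, 2 of them higher in FL and 1 in BM. Gja5 and Gja4, connexins of arterial endothelium, were at 33.8 against 0.766 FPKM and 23.1 against 0.153 FPKM, Efnb2, the arterial ephrin, at 46.1 against 1.26 FPKM, Dll4, a Notch ligand of arteries and tip cells, at 12.8 against 0.744 FPKM, and Edn1, the vasoconstrictor endothelin, at 31.9 against 0.0303 FPKM. The exception was Cxcr4, the receptor for Cxcl12, at 8.14 against 26.9 FPKM. All 7 venous or lymphatic genes that met the rule were higher in FL (median 5.35), and each was under 5 FPKM in BM and so passed through FL alone. Among them Nr2f2, a factor that specifies veins, was at 50.3 against 0.654 FPKM, Ephb4, the venous ephrin receptor, at 132 against 4.93 FPKM, and Aplnr, the apelin receptor, at 322 against 0.785 FPKM. The lymphatic factor gene Prox1 stayed under the rule at 2.28 FPKM in FL.

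Genes of liver sinusoidal endothelium, the fenestrated scavenger endothelium of the liver, were also higher, for all 13 members that met the rule (median 3.94), although each was under 5 FPKM in BM and so had to be higher in FL. The scavenger receptor genes Stab1 and Stab2 were at 199 against 3.22 FPKM and 39.7 against 4.08 FPKM, Lyve1, the hyaluronan receptor of sinusoids and lymphatics, at 40.8 against 1.96 FPKM, and Mrc1, the mannose receptor, at 65.3 against 2.73 FPKM. Gata4, a sinusoidal and mesenchymal factor, was lower in level, at 5.59 against 1.01 FPKM, and Gpr182 and Oit3, both sinusoid-enriched, were at 22.2 against 1.61 FPKM and 12 against 2.07 FPKM. Clec4g, F8, Wnt2 and Wnt9b of the same list were under 2 FPKM in FL. Tip cell and angiogenic genes gave 9 of 12 higher in FL and 1 in BM (median 3.65), with Mcam at 96.1 against 0.69 FPKM and Apln, the apelin ligand, at 18 against 0.612 FPKM. Among the 8 tip cell and angiogenic genes that reached 5 FPKM in both columns, 5 were higher in FL and 1 in BM (median 1.92).

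**Figure D2:**
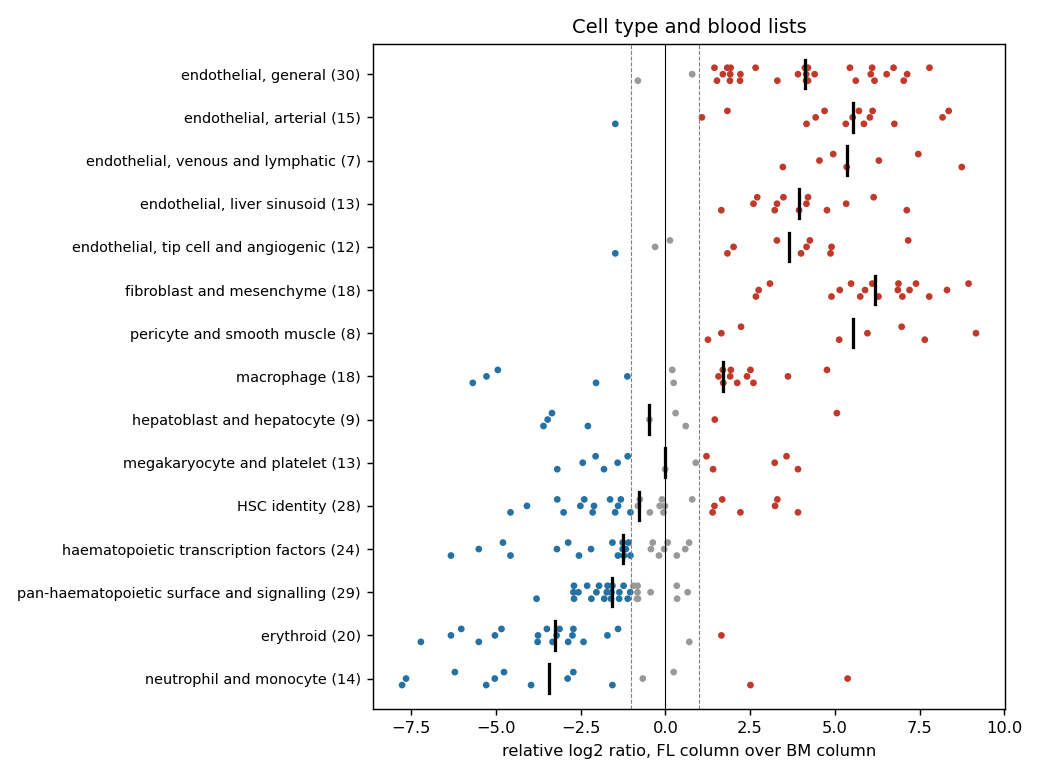
Relative log2 ratio of FL over BM (x axis) for the members of 15 cell type and blood lists that met the 5 FPKM rule (number in parentheses); each point is a gene, red is at least 2-fold higher in FL, blue at least 2-fold higher in BM, grey within 2-fold, and the black bar is the list median. The endothelial and mesenchymal medians lie between 3.65 and 6.20, the erythroid and neutrophil medians at -3.27 and -3.42.

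Transcription factors of endothelium did not move as 1 group. Of 27 members that met the rule, 17 were higher in FL and 2 in BM (median 2.77). The higher group held the SoxF genes Sox7 (31.1 against 0.0964 FPKM) and Sox18 (136 against 17.2 FPKM), the shear-responsive factor gene Klf2 (115 against 1.53 FPKM), the hypoxia-responsive factor gene Epas1 (49.3 against 1.09 FPKM), Foxc1 (20.7 FPKM, listed at 0 in BM), Ets1 (94.2 against 5.69 FPKM) and Elk3 (189 against 43.3 FPKM). Among factors also known from blood cells, Fli1 was at 61.8 against 57.6 FPKM, Erg at 56.4 against 75.8 FPKM, Lyl1 at 59.6 against 94.4 FPKM and Tal1 at 21.5 against 59.3 FPKM. Among the 14 members that reached 5 FPKM in both columns, 4 were higher in FL and 2 in BM, with a median of -0.043, so the list's positive median rested on genes under 5 FPKM in BM.

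Fibroblast and mesenchymal genes had a lower summed level than general endothelial genes. Their median ratio was larger with the pseudocount of 0.1 FPKM used here and slightly smaller with 1 FPKM. The order of these medians therefore depended on the pseudocount. Of 28 listed genes 18 met the rule and all 18 were higher in FL (median 6.20), with a summed level of the list of 1004 FPKM in FL and 28.6 FPKM in BM; 2 members reached 5 FPKM in both columns. The fibrillar collagen genes Col1a1, Col1a2 and Col5a2 were at 97.1 against 0.799 FPKM, 69.5 against 1.74 FPKM and 59.9 against 0.123 FPKM. Lum and Dcn, small proteoglycans of connective tissue, were at 18.6 and 14.2 FPKM in FL and listed at 0 in BM. Twist1, a mesenchymal transcription factor gene, was at 11.3 against 0.0155 FPKM. The other 10 listed genes were under 5 FPKM in FL, among them Pdgfra, the receptor that marks many fibroblasts, at 4.66 against 0.109 FPKM.

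Contractile genes of pericytes and smooth muscle were higher in FL for all 8 members that met the rule (median 5.54), but the defining genes were uneven. Only 1 of the 8 reached 5 FPKM in both columns, with a relative log2 ratio of 1.26. The others were under 5 FPKM in BM and so passed through FL alone. Acta2, smooth muscle actin, was at 66.1 against 0.0359 FPKM, Tagln (transgelin) at 29 against 0.882 FPKM and Myl9, a myosin light chain, at 31.6 against 0.198 FPKM. Myh11, Cnn1 and Rgs5, which mark mature smooth muscle and pericytes, were at 1.05, 1.48 and 1.6 FPKM in FL. Hepatic stellate genes gave few members: 2 of 14 met the rule, among them Ecm1 (64.8 against 8.65 FPKM), and Hand2 was just under it at 4.96 FPKM in FL.

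Extracellular matrix genes that met the rule were higher in FL without exception. Of the collagen list 14 of 14 members that met the rule were higher in FL (median 6.28), of the basement membrane list 17 of 17 (median 4.94) and of the matrix enzyme list 18 of 18 (median 4.50). For those that reached 5 FPKM in both columns the counts were 1 of 1, 5 of 5 and 7 of 7. Col4a1 and Col4a2, the collagen IV chains of basement membranes, were the most abundant, at 358 against 26.2 FPKM and 213 against 25.5 FPKM, with Col18a1, the vessel-wall collagen that yields endostatin, at 402 against 35.5 FPKM. The laminin genes Lama4 and Lamb1 were at 50.1 against 0.154 FPKM and 79.3 against 1.14 FPKM, perlecan (Hspg2) at 168 against 2.75 FPKM and fibronectin (Fn1) at 146 against 5.48 FPKM. Serpinh1, the collagen chaperone HSP47, was at 478 against 9.58 FPKM, and Mmp2 and Mmp14, matrix proteases, were at 109 against 1.96 FPKM and 75.1 against 1.9 FPKM.

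Adhesion and vessel-tone genes followed the endothelial ones. Of 33 adhesion and junction genes 27 were higher in FL and 3 in BM (median 2.80); the 3 were the leukocyte integrin genes Itga4 (7.9 against 29.9 FPKM) and Itgb2 (5.25 against 24.4 FPKM), and Vcam1 (2.19 against 11 FPKM), which both endothelium and macrophages can express. Among the 17 adhesion and junction genes that reached 5 FPKM in both columns, 14 were higher in FL and 2 in BM (median 2.21). Integrins of endothelium and matrix were higher in FL, with Itgb1 at 301 against 89.8 FPKM and Itga6 at 169 against 28.5 FPKM. Of 23 genes of vascular tone and coagulation 20 were higher in FL (median 2.96). Among the 9 of these that reached 5 FPKM in both columns, 8 were higher in FL (median 1.90). Nos3, endothelial nitric oxide synthase, was at 53.9 against 1.28 FPKM, Cav1, the coat protein of caveolae, at 86.5 against 0.931 FPKM, Thbd, the anticoagulant thrombomodulin, at 41.5 against 4.42 FPKM, and Ece1, which activates endothelin, at 601 against 208 FPKM. Ramp1 and Gucy1a1 were the 2 higher in BM, at 2.31 against 26.1 FPKM and 2.17 against 10.3 FPKM.

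For VEGF, angiopoietin and apelin signalling, 11 of 15 members were higher in FL and 1 in BM (median 4.90). Of the 7 that reached 5 FPKM in both columns 3 were higher in FL and 1 in BM (median 0.79). Flt1 and Flt4, VEGF receptors, were at 52 against 0.478 FPKM and 38.9 against 1.03 FPKM, and the co-receptors Nrp1 and Nrp2 at 49.6 against 0.794 FPKM and 86.1 against 0.476 FPKM. The ligand Vegfa was within 2-fold (11.5 against 12.4 FPKM), and Angpt1, the ligand of Tek that HSCs and stroma make, was higher in BM (7.53 against 30.3 FPKM). Of 18 Notch genes 10 were higher in FL and 1 in BM (median 1.04), and of the 9 at that level in both columns 3 and none (median 0.90). Notch2 was at 4.14 against 14.9 FPKM. The ligands Dll1 and Jag1 were at 21.5 against 0.0659 FPKM and 17.2 against 0.194 FPKM and the target Hes1 at 35.1 against 1.73 FPKM, while the modifier Mfng was within 2-fold (86.1 against 82.7 FPKM).

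Members of several growth factor pathways were higher in FL, mostly through genes under 5 FPKM in BM. In the TGF-beta and BMP list 15 of 24 were higher in FL and none in BM (median 1.55), or 7 of the 16 that reached 5 FPKM in both columns (median 0.91). The ligand Bmp4 was at 21.6 against 0.365 FPKM, the endothelial receptor Acvrl1 at 60.9 against 1.55 FPKM and the target Id3 at 148 against 14.2 FPKM. In the Wnt list 13 of 17 were higher (median 2.78), or 2 of 5 at that level in both columns (median 0.73). The receptor Fzd4 was at 23.8 against 1.98 FPKM and the nuclear factor Lef1 at 8.27 against 0.0102 FPKM. In the Hedgehog, retinoid and FGF list 12 of 16 were higher (median 3.22), or 2 of 5 at that level in both (median 0.97). Crabp1, a retinoic acid binding protein, was at 16.9 FPKM in FL and listed at 0 in BM, and Fgfr1 at 37.4 against 6.29 FPKM. Of 20 ephrin, semaphorin, Slit and Robo genes 18 were higher in FL and 1 in BM (median 3.95), with 3 of 3 higher among those at that level in both. Plxnd1, a semaphorin receptor gene, was at 304 against 25.4 FPKM.

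HSC niche factors, the signals that stroma and endothelium present to HSCs, were higher in FL for 14 of 19 members and higher in BM for 2, Angpt1 and Vcam1 (median 2.59). Kitl, which encodes stem cell factor, was at 18.7 against 0.39 FPKM, and Cxcl12, the chemokine that retains HSCs, at 15.4 against 0.0495 FPKM. Ptn (pleiotrophin) was at 74.1 against 1.06 FPKM and Igf1 at 49.9 against 11.6 FPKM. Among the 6 members that reached 5 FPKM in both columns, 3 were higher in FL and 1 in BM. The receptor genes Kit, at 35.5 against 117 FPKM, and Cxcr4, given above, were lower in FL.

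Hox genes were higher in FL for 7 of the 13 members that met the rule and higher in BM for none (median 2.19), but the clusters differed. Hoxd8 and Hoxd9 were at 14.2 and 5.41 FPKM in FL and listed at 0 in BM. Hoxb7, Hoxb8 and Hoxb9 were at 7.62 against 0.079 FPKM, 11.2 against 1.34 FPKM and 11.3 against 0.334 FPKM. In cluster A, Hoxa5 was higher in FL (24.4 against 6.21 FPKM), whereas Hoxa9 and Hoxa7, which HSCs express, were within 2-fold at 45.3 against 63.7 FPKM and 14.2 against 21.4 FPKM. Of the 5 members that reached 5 FPKM in both columns, 1 (Hoxa5) was higher in FL. The other 25 Hox genes of the table were under 5 FPKM in both columns; Hoxc10, the highest of cluster C, was at 3.82 FPKM in FL and listed at 0 in BM. The cofactor genes Meis2 and Meis3 were higher in FL (27.3 against 4.02 FPKM and 6.1 against 1.62 FPKM), and Meis1, the cofactor that supports HSCs, was higher in BM (29.5 against 71 FPKM).

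**Figure D3:**
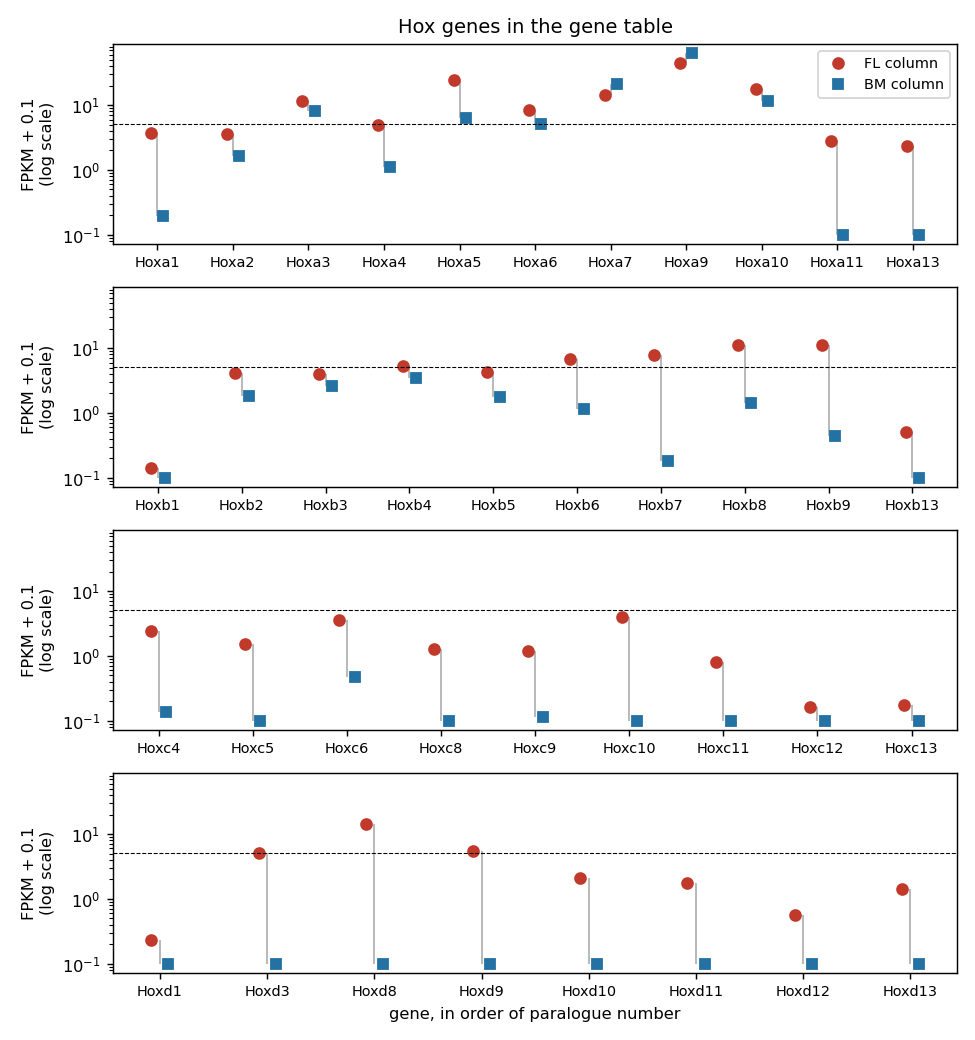
Levels of the Hox genes in the gene table by cluster (A to D from top to bottom), in FPKM plus 0.1 on a log scale (y axis), with genes in order of paralogue number (x axis); red circles are the FL column, blue squares the BM column, and the dashed line is the 5 FPKM rule. Cluster D genes are present in FL and at or near 0 in BM, and Hoxa7 and Hoxa9 are the genes where BM is the higher of the 2.

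Other transcription factors of body position and mesoderm were present in FL at low levels. Of 43 such genes 14 met the rule, 11 were higher in FL and none in BM (median 6.02). Tbx3 and Irx3 were at 8.63 and 11.4 FPKM in FL and listed at 0 in BM, Tbx1 was at 18.7 against 0.0718 FPKM and Gata6 at 11.5 against 0.0935 FPKM. The 3 members that reached 5 FPKM in both columns, Zeb1, Zeb2 and Nkx2-3, lay within 2-fold, with a median of -0.13. Nkx2-3, a factor of spleen and gut vessels, was at 12.8 against 28 FPKM.

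Stress and stimulation genes were higher in FL for the immediate early list and not for chaperones as a whole. Of 32 immediate early genes that met the rule 30 were higher in FL and 1, Myc, in BM (median 3.58), and of the 18 that reached 5 FPKM in both columns 16 were higher in FL (median 2.86). The AP-1 subunit genes Fos, Jun and Junb were at 138 against 0.477 FPKM, 161 against 6.65 FPKM and 149 against 17.8 FPKM. Zfp36, whose product degrades inflammatory mRNAs, was at 167 against 10.3 FPKM, and Atf3, a stress-induced factor gene, at 68.3 against 0.409 FPKM. Ccn1 and Ccn2, matricellular targets of shear and stretch signalling, were at 51.7 against 0.166 FPKM and 21.9 against 0.0951 FPKM. Myc was at 29.6 against 133 FPKM, and Dusp2 was within 2-fold (39.3 against 24.5 FPKM).

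The cyclic AMP response element (CRE) is a regulatory element of several immediate early genes, and the promoters of the 3 members that hold its full palindrome are shown for that reason. The AP-1 motif TGACTCA was in 0 of 28 immediate early promoters with an entry and in 2.70% of the promoters of this comparison. TGACGTCA was present in 3 of the 28, in 1.62% of all promoters and in 2.76% of the promoters of this comparison. The stretches are Dusp1 (chr17:26508582-26508641, minus strand), Ppp1r15a (chr7:45526269-45526328, minus strand) and Btg2 (chr1:134079288-134079347, minus strand) of GRCm38.p6, with the palindrome in capitals.
Dusp1: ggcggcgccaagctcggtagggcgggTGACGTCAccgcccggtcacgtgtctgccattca
Ppp1r15a: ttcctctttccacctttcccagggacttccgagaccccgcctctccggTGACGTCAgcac
Btg2: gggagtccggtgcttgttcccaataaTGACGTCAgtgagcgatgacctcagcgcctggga
Dusp1, a phosphatase that shuts off MAP kinases, was at 114 against 8.41 FPKM, Ppp1r15a, which reverses the translation block of stressed cells, at 62.2 against 12.1 FPKM, and Btg2, an antiproliferative gene, at 50.4 against 5.1 FPKM.

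Heat shock and chaperone genes did not move as 1 group. Of 23 that met the rule 8 were higher in FL and 3 in BM, with a median of 0.03, and of the 18 that reached 5 FPKM in both columns 3 were higher in each direction. Hspa1b and Hspa1a, near-identical copies of inducible HSP70 whose separate values are uncertain, were at 59.6 against 0.955 FPKM and 22.2 against 0.425 FPKM, and Hspb1 was at 11.3 FPKM in FL and listed at 0 in BM. Hspa8, the constitutive HSP70, was at 888 against 1069 FPKM, and Hsp90aa1 was higher in BM, at 136 against 513 FPKM. In the unfolded protein list 6 of 21 were higher in FL and 1 in BM; Ddit4, a stress-induced inhibitor of mTORC1, was at 59.7 against 7.49 FPKM. Of 20 hypoxia genes 7 were higher in FL and 2 in BM, or 3 and 1 of the 15 that reached 5 FPKM in both columns (median 0.04). Slc2a1, the glucose transporter, was at 126 against 43.2 FPKM and Hif1a at 35.3 against 15.3 FPKM. Of 15 p53 target genes 6 were higher in FL and 1 in BM, or 2 and 1 of the 10 at that level in both columns (median 0.09). Cdkn1a, the inhibitor p21, was at 22.2 against 4.28 FPKM.

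Inflammatory chemokine genes were among those higher in FL. This family was collected by symbol after its values had been seen: 12 of 14 chemokine ligand genes that met the rule were higher in FL and none in BM, but 12 of the 14 were under 5 FPKM in BM, and of the 2 that reached it in both 1 was higher in FL. The neutrophil attractants Cxcl2 and Cxcl1 were at 36.4 and 14.7 FPKM in FL and listed at 0 in BM. The monocyte attractant Ccl2 was at 30.5 against 0.586 FPKM, and the macrophage products Ccl3 and Ccl4 at 59.4 against 0.266 FPKM and 36.8 against 3.12 FPKM.

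**Figure D4:**
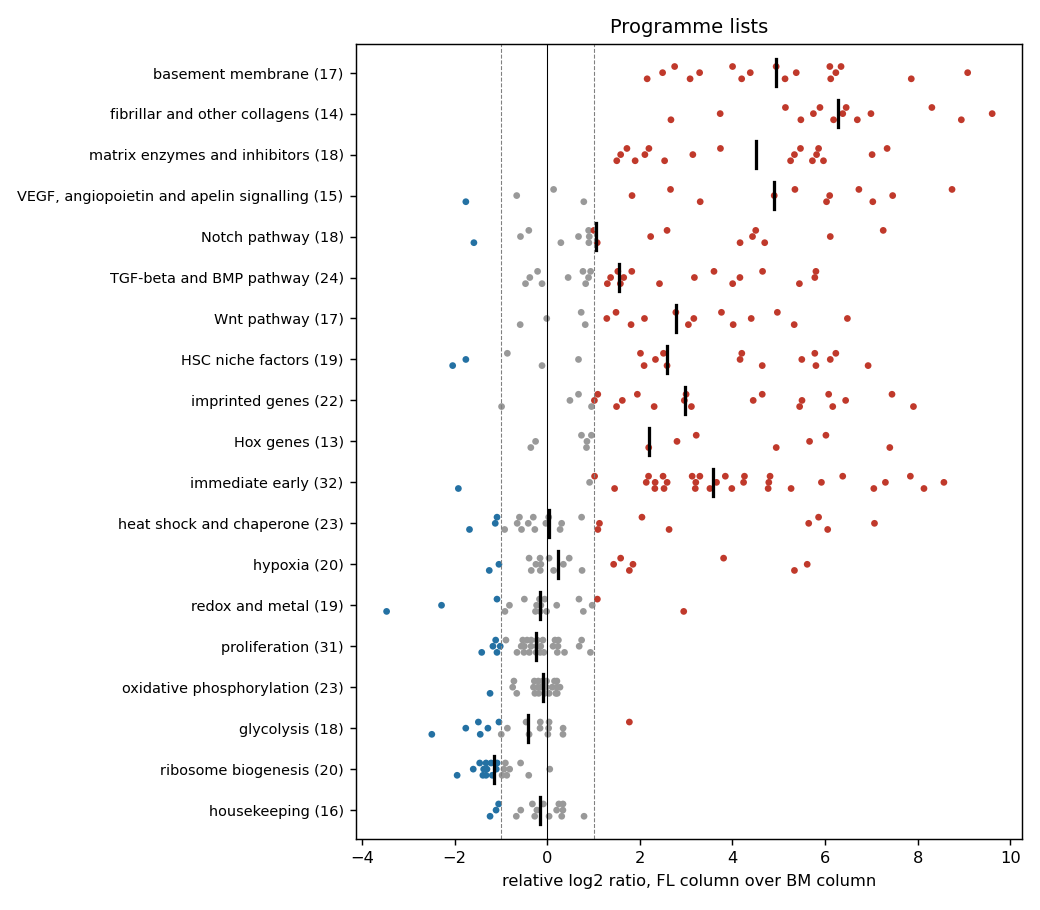
Relative log2 ratio of FL over BM (x axis) for the members of 19 programme lists that met the 5 FPKM rule (number in parentheses); points, colours and bars are as in the plot of cell type lists. Matrix, signalling, imprinted and immediate early lists lie to the right, while proliferation, oxidative phosphorylation and housekeeping genes gather around 0 and ribosome biogenesis genes lie to the left (median -1.15).

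Many immediate early genes were high in the transcript sums headed BM too, a column that matched neither column of the gene table. Fos was at 158 FPKM there, Fosb at 26.5, Egr1 at 61.4, Dusp1 at 105, Ier2 at 141, Hspa1a at 23.1 and Hspa1b at 25.5 FPKM, against 138, 46, 55.4, 114, 126, 22.2 and 59.6 FPKM in the FL column of the gene table. Another group was low in it: Atf3 was at 0.187, Ccn1 at 0.146, Klf4 at 3.75, Socs3 at 2.47 and Nr4a1 at 4.97 FPKM. Of the 30 general endothelial genes 17 reached 5 FPKM there (median 8.41 FPKM); the gene table gave medians of 160.9 FPKM under FL and 12.2 FPKM under BM. Levels differed among them, with Mmrn2 at 0.00237, Cldn5 at 0.71 and Plvap at 0.634 FPKM, while Pecam1 was at 19.3 and Emcn at 8.36 FPKM. Acta2, Lum and Dcn were listed at 0. The transcript values are sums over linked transcripts and came from a separate table, so they are set side by side without a ratio.

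**Figure D5:**
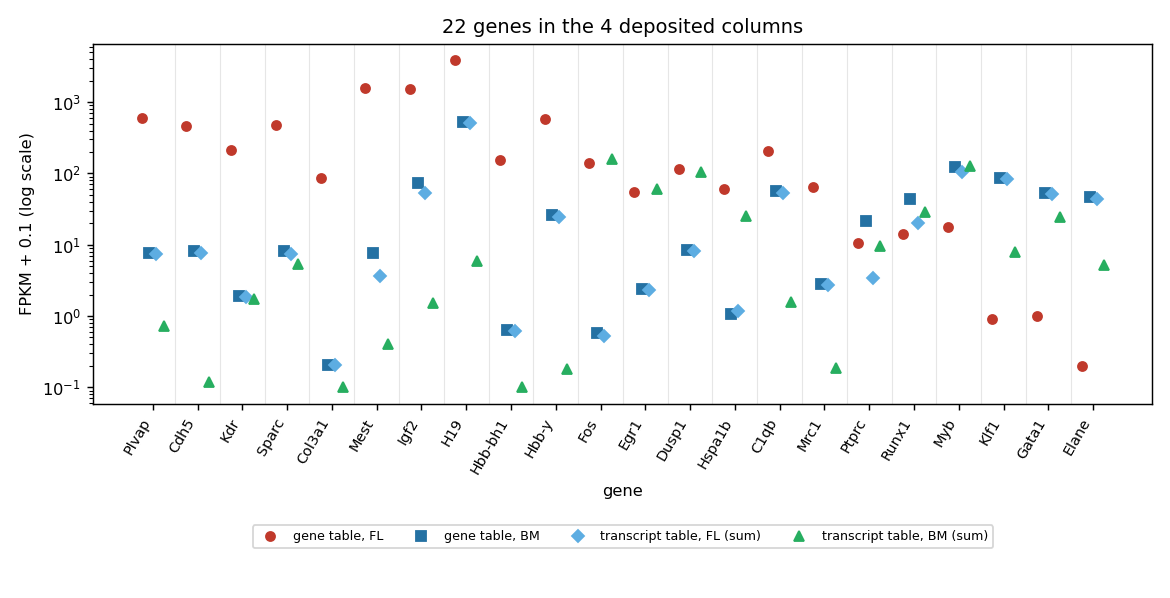
Levels of 22 genes (x axis) in the 4 deposited columns, in FPKM plus 0.1 on a log scale (y axis): gene table FL (red circles) and BM (blue squares), and sums of linked transcripts for FL (light blue diamonds) and BM (green triangles). Blue squares and light blue diamonds nearly coincide for most genes; Fos, Egr1, Dusp1 and Hspa1b are high in both the red and the green columns.

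Imprinted genes, which are read from a single parental copy and often control growth, included some of the most abundant genes of FL. Of 22 members that met the rule 18 were higher in FL and none in BM (median 2.98), and 11 of 14 that reached 5 FPKM in both columns were. Their summed level was 10194 FPKM in FL and 1331 FPKM in BM. H19, Mest and Igf2 had relative log2 ratios of 3.11, 7.91 and 4.64. Plagl1, a zinc finger regulator of other imprinted genes, was at 312 against 4.11 FPKM, Peg10 at 94.4 against 2.35 FPKM, Peg3 at 62.2 against 1.58 FPKM, and Asb4 at 63.6 against 0.944 FPKM. Gnas, which encodes a G-protein subunit, was at 1379.8 against 328 FPKM, and Cdkn1c, the inhibitor p57, at 239.8 against 36.2 FPKM. Dlk1 and Peg12 were within 2-fold (125 against 92.6 FPKM and 9.06 against 7.59 FPKM). Copg2 lies beside Mest in the opposite orientation, so its value (287 against 42.3 FPKM) is uncertain where reads carry no strand. Among IGF system genes 9 of 14 were higher in FL and 1 in BM (median 2.32). Of the 9 that reached 5 FPKM in both columns, 4 were higher in FL and 1 in BM (median 0.86). The binding protein genes Igfbp4 and Igfbp3 were at 534 against 127 FPKM and 75.4 against 0.423 FPKM.

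General blood genes were lower in FL but still clearly measured. Of 29 surface and signalling genes shared by blood cells 20 were higher in BM and none in FL (median -1.56), and of the 27 that reached 5 FPKM in both columns 18 were higher in BM. Coro1a, the actin regulator coronin of leukocytes, was at 156 against 469.7 FPKM, Vav1, a signalling adaptor, at 16.1 against 57.8 FPKM, and Btk at 9.48 against 72.9 FPKM. Ptprc, the common leukocyte antigen CD45, was within 2-fold at 10.3 against 21.4 FPKM, as was Lcp1, a leukocyte actin bundler, at 139 against 129.5 FPKM. Summed over the list, the level was 1029.6 in FL and 2899.8 in BM. Haematopoietic transcription factor genes were higher in BM for 16 of 24 members and in FL for none (median -1.24). Of the 19 that reached 5 FPKM in both columns 11 were higher in BM (median -1.09). Runx1 was at 13.9 against 43.5 FPKM, Lmo2 at 130.1 against 367 FPKM and Bcl11a at 13.1 against 71 FPKM, while Spi1, the factor PU.1, was within 2-fold (58.2 against 70.3 FPKM).

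HSC identity genes did not move as 1 group. Of 28 that met the rule 7 were higher in FL, 13 in BM and 8 within 2-fold (median -0.78). Among the 22 that reached 5 FPKM in both columns, 6 were higher in FL and 8 in BM (median -0.31). The 7 higher in FL were Vwf, Tek, Gprc5c, Esam, Fgd5, Cd34 and Procr. Of these, Vwf, Tek, Esam and Cd34 stand in the general endothelial list too. Procr, the protein C receptor of HSCs and endothelium, was at 121 against 54 FPKM, and Fgd5 at 59.4 against 21.8 FPKM. Regulators of HSCs were among those higher in BM: Hlf was at 7.85 against 74.9 FPKM, Mllt3 at 11 against 57.8 FPKM, Prdm16 at 4.09 against 15.2 FPKM and Gfi1b at 3.34 against 96 FPKM. Mecom was within 2-fold (23.7 against 38.4 FPKM). In the haemogenic endothelium list, 6 of 18 were higher in FL, the endothelial side with Kdr, Cdh5 and Sox17, and 9 in BM, the blood side with Runx1, Gfi1 (16.4 against 57.3 FPKM) and Adgrg1 (63.8 against 331 FPKM).

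Erythroid genes were far lower in FL than in BM. Of 20 that met the rule 18 were higher in BM and 1 in FL (median -3.27), and of the 7 that reached 5 FPKM in both columns 5 and 1 (median -1.71). The erythropoietin receptor gene Epor was at 3.63 against 49.5 FPKM, Ermap, an erythroid membrane protein gene, at 0.801 against 68.8 FPKM, and the Rh-complex genes Rhag and Rhd at 0.457 against 21.3 FPKM and 0.879 against 32.8 FPKM. Car1, a red-cell carbonic anhydrase gene, was listed at 0 in FL and at 17.4 FPKM in BM. Of 16 genes of haem synthesis and iron 8 were higher in BM and none in FL, with Cpox, an enzyme of the haem pathway, at 9.34 against 116 FPKM and Steap3, an iron reductase, at 2.95 against 48.1 FPKM.

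CACACCC is the element that the erythroid factor KLF1 is known to bind, and 3 erythroid promoters that hold it are shown, including that of Klf1 itself. It was found on either strand in 3 of 15 erythroid promoters with an entry, in 6.85% of all promoters and in 7.20% of those of this comparison. Among genes at least 4-fold higher in BM 15.6% of 224 held it, against 7.01% of 756 at least 4-fold higher in FL. The GATA motif AGATAA was found in 12.5% and 5.03% of the same groups and in 4 of 15 erythroid promoters. Its share was 5.53% of the promoters of this comparison and 10.3% of all promoters. None of the motifs named here contains another. Promoters differ in base composition between the groups: the median number of CG dinucleotides was 6 for the BM group and 15 for the FL group. The stretches are Klf1 (chr8:84901839-84901898, plus strand), Gata1 (chrX:7967954-7968013, minus strand) and the adult beta-globin gene Hbb-bs (chr7:103827988-103828047, minus strand) of GRCm38.p6, with the motif in capitals.
Klf1: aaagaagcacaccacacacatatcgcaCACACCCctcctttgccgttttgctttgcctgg
Gata1: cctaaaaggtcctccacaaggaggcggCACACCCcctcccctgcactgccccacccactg
Hbb-bs: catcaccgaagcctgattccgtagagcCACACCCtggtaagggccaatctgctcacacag
Klf1 was at 0.822 against 87 FPKM, Gata1 at 0.906 against 53.7 FPKM and Hbb-bs at 11.5 against 35.7 FPKM.

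Of 7 globin genes 4 were higher in FL, 2 in BM and 1 within 2-fold. The embryonic genes Hbb-bh1, Hba-x and Hbb-y were higher in FL, at 152 against 0.544 FPKM, 161 against 3.85 FPKM and 588 against 25.9 FPKM. Adult beta-globin genes Hbb-bt and Hbb-bs were higher in BM, Hbb-bt at 10.9 against 69.2 FPKM, while the adult alpha-globin gene Hba-a1 was within 2-fold (58.1 against 41.9 FPKM). Hba-a2 was higher in FL (27.3 against 10.1 FPKM). The adult copies of each locus are near-identical, so their separate values are uncertain. The embryonic globins were high in the column where Klf1, Epor and Rhag were under 4 FPKM.

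Of 14 neutrophil and monocyte genes 10 were higher in BM and 2 in FL (median -3.42). Among the 6 that reached 5 FPKM in both columns 3 were higher in BM and 1 in FL (median -1.11). S100a8 and S100a9, the calprotectin subunits, were at 1.24 against 116 FPKM and 1.35 against 56 FPKM, and Camp, a granule peptide gene, at 0.24 against 15.5 FPKM. The 2 higher in FL, F13a1 (71.2 against 1.92 FPKM) and Csf1r (92.2 against 19 FPKM), are also expressed by macrophages. Of 18 macrophage genes 11 were higher in FL and 5 in BM (median 1.70), and of the 9 that reached 5 FPKM in both columns 7 were higher in FL and none in BM (median 1.71). The complement genes C1qa, C1qb and C1qc were at 129 against 40.2 FPKM, 206 against 55.8 FPKM and 142 against 43.7 FPKM, the receptor Cx3cr1 at 27.8 against 2.58 FPKM and Adgre1, the antigen F4/80, at 32.1 against 11.6 FPKM. The 5 higher in BM, all under 5 FPKM in FL, were Marco (0.372 against 28.4 FPKM), Cd5l (1.34 against 52.1 FPKM), Clec4f (0.0962 against 8.86 FPKM), Timd4 (2.46 against 6.46 FPKM) and Vcam1; Clec4f and Timd4 are known from resident liver macrophages. Among the transcript sums headed BM, C1qb was at 1.48 and Csf1r at 0.0779 FPKM.

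Stefin A and eosinophil granule genes, a family collected by symbol after the values had been seen, were higher in BM for 8 of 8 members that met the rule, each of which was under 5 FPKM in FL and so passed through BM alone. Prg2, the eosinophil major basic protein gene, was at 0.0427 against 31.6 FPKM, and Stfa1, a protease inhibitor gene of granulocytes, at 0.511 against 44.9 FPKM. Megakaryocyte genes gave 5 higher in FL and 6 in BM of 13 (median -0.01). This median depended on the level rule. It was -1.11 for the 5 members at 5 FPKM or more in both columns, 2 of them higher in FL and 3 in BM. With a level rule of 10 FPKM in either column it was 1.21. Pf4, the platelet chemokine, was at 147 against 74.9 FPKM, and Gp9, a subunit of the platelet receptor for Vwf, at 4.82 against 24 FPKM. Mast cell, B cell and T and NK cell lists had 2, 1 and 3 members that met the rule. Another gene of the B cell list, at 23.3 FPKM in FL and at most 3.05 FPKM in BM, was left out by its biotype. The T cell receptor subunit Cd3d was listed at 0 in both columns.

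Few hepatocyte genes met the rule, and those that did pointed in both directions. Of 25 listed genes 9 met the rule, 2 were higher in FL and 4 in BM (median -0.47). Alb, albumin, was at 0.381 against 6.74 FPKM, Hnf4a, the hepatocyte factor, at 0.445 against 6.42 FPKM, and Afp, the fetal plasma protein, at 8.69 against 6.72 FPKM. The metallothionein genes Mt1 and Mt2, which fetal liver expresses strongly, were higher in BM, at 54.7 against 314 FPKM and 13.3 against 175 FPKM. Krt8 and Krt19, keratins of epithelia, were at 11.5 against 0.308 FPKM and at 6.17 FPKM in FL with Krt19 listed at 0 in BM. Epcam, the epithelial surface protein, was under the rule at 3.69 against 0.52 FPKM.

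Single genes of tissues outside liver and vessels were also found in FL. Stmn2, a neuronal microtubule regulator, was at 69.3 FPKM and Actc1, cardiac actin, at 13.7 FPKM, both listed at 0 in BM. Most defining genes of those tissues were low: Sox10 was at 1.51, Nefl at 1.71, Tnnt2 at 2.97 and Myod1 at 0.767 FPKM in FL. Plac1 and Prl3b1, known from trophoblast, were at 49.6 against 0.489 FPKM and at 15.6 FPKM in FL with Prl3b1 listed at 0 in BM. Prl3d1 and Tpbpa of the same lineage had no FPKM in either column (listed at 0). Of the trophoblast and yolk sac list 4 of 15 genes met the rule and 3 were higher in FL; part of this list, such as Sox7, is expressed by endothelium too.

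Proliferation genes were near the median gene. Of 31 members 26 were within 2-fold, 5 were higher in BM and none in FL (median -0.24). Cdk1, the mitotic kinase, was at 221 against 161 FPKM, Top2a at 109.6 against 115 FPKM and Mki67 at 25.7 against 33.5 FPKM, while the replication licensing gene Mcm7 was higher in BM (81.2 against 256 FPKM). The list of cyclin-dependent kinase inhibitors and genes tied to quiescence was higher in FL for 12 of 17 members and in BM for 1, Foxo3 (11.2 against 39.2 FPKM), with a median of 2.25, and for 5 of the 9 that reached 5 FPKM in both columns (median 1.28); Cdkn1c, Cdkn1a, Btg2 and Egr1 of this list belong to lists given above. Gas6, a ligand of TAM receptors, was at 68.1 against 2.15 FPKM, and Cdkn1b, the inhibitor p27, was within 2-fold (21.3 against 18 FPKM).

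Oxidative phosphorylation and ribosomal protein genes were close between the columns. Of 23 oxidative phosphorylation genes 22 were within 2-fold (median -0.10), of 76 cytosolic ribosomal protein genes 75, and of 77 mitochondrial ribosomal protein genes 75. Ribosome biogenesis genes were higher in BM for 12 of 20 members and in FL for none (median -1.15). Fbl, the nucleolar methyltransferase fibrillarin, was at 126 against 390.0 FPKM and Dkc1, the pseudouridine synthase dyskerin, at 36.4 against 166 FPKM. Glycolysis genes gave 6 of 18 higher in BM and 1, Slc2a1, in FL, with the hexokinase gene Hk1 at 27.6 against 184 FPKM. Housekeeping genes were within 2-fold for 13 of 16 and higher in BM for 3, among them Rpl13a and Sdha (median -0.16).

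Genes of genome organisation, the process that the study addresses, were within 2-fold for 33 of 35 members (median -0.17). Ctcf, the boundary factor, was at 46.3 against 72.5 FPKM, the cohesin subunit gene Rad21 at 78.2 against 84.4 FPKM and the lamin gene Lmnb1 at 163 against 222 FPKM. The 2 higher in BM were Hmga1 (206 against 757 FPKM) and Satb1 (4.72 against 12.5 FPKM), both genes of chromatin architecture. Antigen presentation genes were lower in FL or within 2-fold: of 10 MHC class I genes 4 were higher in BM, including H2-K1 (46.2 against 149 FPKM), and B2m was at 367 against 349 FPKM. Interferon response genes gave 4 of 19 higher in FL and 3 in BM. Xist, the X-inactivation RNA, and the Y-linked gene Eif2s3y were present in both columns, at 30.3 against 28.9 FPKM and 16.1 against 16.8 FPKM.

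Actin and motility genes led the other genes higher in FL by level. Tmsb4x and Tmsb10, actin-sequestering thymosins, were at 3958 against 741 FPKM and 2309 against 573 FPKM, Vim, the mesenchymal filament protein, at 1319 against 265 FPKM, Actg1 at 871 against 327 FPKM, and Apoe, a lipoprotein of macrophages and other cells, at 1326 against 557 FPKM. Mdk, the growth factor midkine of embryonic tissue, was at 433 against 10.4 FPKM. Outside the lists, the largest ratios belonged to Hapln1, a matrix link protein gene, at 59.6 FPKM in FL and listed at 0 in BM, Tcim (94.7 against 0.0914 FPKM), Parva, a focal adhesion gene (59.6 against 0.0449 FPKM), Cxcl2, whose level is given above, and Eln, elastin (38.4 against 0.0136 FPKM). The smallest ratios outside the lists, after Prg2, were those of Tspo2, listed at 0 in FL and at 21.3 FPKM in BM, and Pklr, the pyruvate kinase of red cells and liver (0.281 against 78.3 FPKM). Outside the lists, the highest levels in BM among genes called higher there were those of E2f6 (187 against 633 FPKM, although its transcripts headed FL summed to 37.7 FPKM, so its gene value is uncertain), H2afy (232 against 619 FPKM) and Anp32b (184 against 615 FPKM).

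Among the 151 lncRNA genes 33 were higher in FL, 39 in BM and 79 within 2-fold (median -0.26), and 101 of them carry provisional Gm or Rik names. Meg3, of the imprinted Dlk1 locus, was at 131 against 6.99 FPKM, and Hoxa11os, antisense to Hoxa11, at 8.72 FPKM in FL and listed at 0 in BM. Junos, divergent from Jun, was at 18 against 1.01 FPKM, and Prss23os at 23.3 FPKM in FL and listed at 0 in BM. In the BM direction Neat1, the RNA of paraspeckles, was at 8.83 against 42.9 FPKM, Snhg3, a snoRNA host gene, at 30.6 against 172 FPKM, and Mir142hg, the host of a blood-specific miRNA, at 0.475 against 8.79 FPKM. Without strand, reads of an antisense RNA and of its partner gene cannot be told apart, and the counting's use of strand was not given in the sources used here.

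General endothelial, fibroblast and immediate early lists had positive medians in the same column, the 1 with the decimals of a mean of 3 values, and the erythroid and pan-haematopoietic lists had negative ones. The general endothelial list took 0.992% of all FPKM of that column. The part of endothelial and mesenchymal RNA, or of the number of values averaged, in the ratios of the blood lists was not tested.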

How the data were processed

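RNA of sorted HSCs was measured as FPKM per gene and per transcript, in tables with the headers FL and BM. These FPKM values are the authors' own, deposited without counts, replicates or depth. Per the submitters' processing notes, TopHat, Cufflinks, featureCounts of Subread, edgeR and the mouse build mm9 were used, with no role, order or version; the release of the gene annotation was not given in the sources used here. Each column is scaled to its own total by FPKM, so abundant genes of 1 column lower all others in it, and reads of near-identical or overlapping genes are shared by a model or a rule that is not stated.

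Symbols and biotypes came from GENCODE M21 by identifier (32838 of 37820 genes had a symbol), and 76512 of 87641 transcripts were linked and summed per gene. Small RNA, pseudogene and other biotypes and genes without an annotation were left out. Of 1273 genes in 65 lists, 1233 were in the table; the others were not analysed here. The relative log2 ratio used a pseudocount of 0.1 FPKM, a level of 5 FPKM in either column and centring on genes at 1 FPKM or more in both, and calls were made at 2-fold. The calculation was tested on simulated data. Columns headed BM were assigned to the 2 adult samples by header alone. For the gene table this assignment is uncertain, because most of its BM values that could be compared matched the transcript values headed FL.

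The members, the lists and 15 families collected by symbol were chosen with earlier results of these data known, so no list is independent evidence. Named genes are list members, the 4 markers and, outside the lists, the 30 largest and 30 smallest ratios, the 15 highest levels in each direction and the 10 largest and smallest lncRNA ratios, with provisional names counted only. Promoters are the first entry of a gene in the RefSeq table of GRCm38.p6, matched by symbol. RBPJ and TATA motifs were searched too and are not reported here. No other coordinates are printed because the files use mm9. Python 3.11.15, numpy 2.4.6, pandas 2.3.3 and matplotlib 3.10.9 were used. Alternatives were the pseudocount, the level rule, the scaling, the fold and the biotypes, and a rule of 5 FPKM in both columns that was added after seeing the data. Values of some members of the lists are not reported here.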

Additional observations from a re-analysis of the deposited data

Results flagged for a closer look

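Small RNA genes were outside the comparison. Among 1085 genes annotated as snRNA, the short RNAs of the splicing machinery, 8 reached 5 FPKM in FL while listed at 0 in BM, and 2 reached it in BM while listed at 0 in FL; the summed snRNA level was 5771 FPKM in FL and 401 FPKM in BM. This stood out as a signal in data that no comparison above uses. Over all 4115 small RNA genes, 50 were at that level in FL and listed at 0 in BM and 22 showed the reverse. The cause was not tested.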

How the results depend on the processing

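The count of genes higher in FL (1890) was 2995 with a level rule of 1 FPKM, 5025 with no level rule, 1049 at 4-fold and 843 at 5 FPKM or more in both columns; the count of genes higher in BM (1044) was 1774 with no level rule, 295 at 4-fold and 619 at 5 FPKM or more in both columns. The rule of both columns was chosen after seeing the data. Both counts stayed within 1.5 times under the other alternatives: pseudocounts of 0.01 and 1 FPKM, a level of 10 FPKM, no centring, upper-quartile scaling, protein-coding genes only and all biotypes. A level rule of 1 FPKM kept the BM count within that range as well. The share of genes within a constant ratio of the transcript table's FL column was 80.3% at a tolerance of 20% and 80.4% at 5 FPKM or more. Of 42 list medians of at least 1 in size, 3 changed sign under some alternative: T and NK cell genes to -0.11 with a level rule of 1 FPKM, and endothelial transcription factors to -0.043 and positional and mesodermal transcription factors to -0.13 at 5 FPKM or more in both columns. Of 1280 list counts recomputed, 1129 stayed within 1.5 times. No replicate could be left out, because each header has 1 column. No paired analysis was possible because the columns carry no replicate numbers. Depth is unknown, so how precise low values are cannot be given.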
